A study of Mus musculus with 6 samples.

Results

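The Rab family are small GTPases that mark the membranes of the secretory and endocytic pathways. A Rab protein cycles between a GDP-bound form held in the cytosol and a GTP-bound form anchored in a membrane by geranylgeranyl groups on cysteines at its C-terminus. Exchange factors switch it on, GTPase-activating proteins of the TBC family switch it off, and in the active form it recruits effectors such as tethers, motors and coat adaptors. In hepatocytes Rabs direct lipoprotein and albumin secretion, bile canaliculus delivery, receptor recycling and the fusion of autophagosomes with lysosomes. Members were the rows whose gene name is Rab followed by a number, with at most a letter and a digit after it. This gave 59 of the 26359 genes and loci, and 43 of them had enough counts to be tested, among 13197 genes tested in all.

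Poly(A) RNA was sequenced from AML12, an immortalised line of mouse hepatocytes, in 3 libraries labelled sh-1 and 3 labelled sh-NC. These names read as a hairpin against TM9SF1, a transmembrane protein that the study links to autophagy in liver ischemia and reperfusion, and a control hairpin, and the series describes knockdown of TM9SF1 in stable AML12 lines. The sh-1 titles carry the name Sh-2, while the titles of the control libraries give only the cell line, so a hairpin in the control cells is not certain. Whether a line is 1 clone or a pool, and whether the libraries are separate cultures, is not given in the sources used here, so p-values measure the spread between these libraries only.

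Depth was 36997329 to 51334798 counts per library. Tm9sf1 itself measured 36.2 ± 0.783 CPM in sh-1 and 48.8 ± 4.03 CPM in sh-NC (SD, n = 3 each, where CPM are counts per 1000000 after TMM scaling). Its log2 fold change was -0.43 (SE 0.10, edgeR adjusted p = 0.0019). After the correction described next it was -0.09 and did not pass (edgeR adjusted p = 0.358). All 10 hepatocyte markers examined were detected, although Alb was low, at 2.68 CPM in sh-1 and 4.43 CPM in sh-NC, and Ttr was at 0.164 CPM in sh-1 and 2.09 CPM in sh-NC. Summed markers of fibroblasts and stellate cells reached at most 1.69 CPM, of immune cells 5.69 CPM and of endothelial cells 2.23 CPM. The 4 cholangiocyte markers summed to 1411 to 1598 CPM in sh-1 and 1663 to 1897 CPM in sh-NC, with Krt19 and Krt7 abundant and Epcam under 1 CPM. Single markers moved in opposite directions: Sox9, a cholangiocyte marker, was at 24.5 CPM in sh-1 and 75.6 CPM in sh-NC (-1.62, corrected -1.66), and Hnf4a, a hepatocyte marker, at 337 CPM in sh-1 and 149.9 CPM in sh-NC (1.17, corrected 1.46). Their part in the results below was not tested. In bulk RNA, fewer cells that express a gene and less of its RNA per cell cannot be told apart.

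Fold changes of the whole transcriptome ran along transcript GC content, which touches each result that follows. The rank correlation of GC content with log2 fold change across 11956 genes was -0.50 (Spearman's rho), a description across genes that share the same 6 libraries. With genes cut into 10 equal bins by GC content, the median log2 fold change was 1.03 in the GC-poorest bin and -0.54 in the GC-richest. Among the 43 Rab genes rho was -0.30, and their transcripts spanned 37.9 to 59.5% GC. Most log2 fold changes of Rab genes are therefore given as measured and again after subtracting, library by library, a smooth curve in GC content and transcript length, called corrected below. FPKM levels, shares and sums were not corrected. The correction also removes any true change shared by genes of like GC content, and whether the trend is technical or biological cannot be told apart with these libraries.

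Rab genes rose more often than they fell in sh-1, and together they took a larger share of the transcriptome. Of the 43 tested members, 19 were higher and 10 lower at an edgeR adjusted p under 0.05, against 33.3% of all tested genes called higher and 32.2% called lower. The member shares were 44.2% and 23.3%. Of the called members, 5 were at least 2-fold higher and 4 at least 2-fold lower, where 17.1% and 12.6% of all genes were so. Without any test, the CPM of the groups did not overlap in 21 members that were higher (35.2% of all genes) and 11 that were lower (35.1% of all genes). The median absolute log2 fold change was 0.54 over the members and 0.66 over all genes. After the correction the split turned round, with 16 members higher (all genes 32.9%) and 19 lower (all genes 34.7%). Calls held in the same direction both ways for 12 higher and 10 lower members, and 4 members went from higher to lower.

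**Figure D1:**
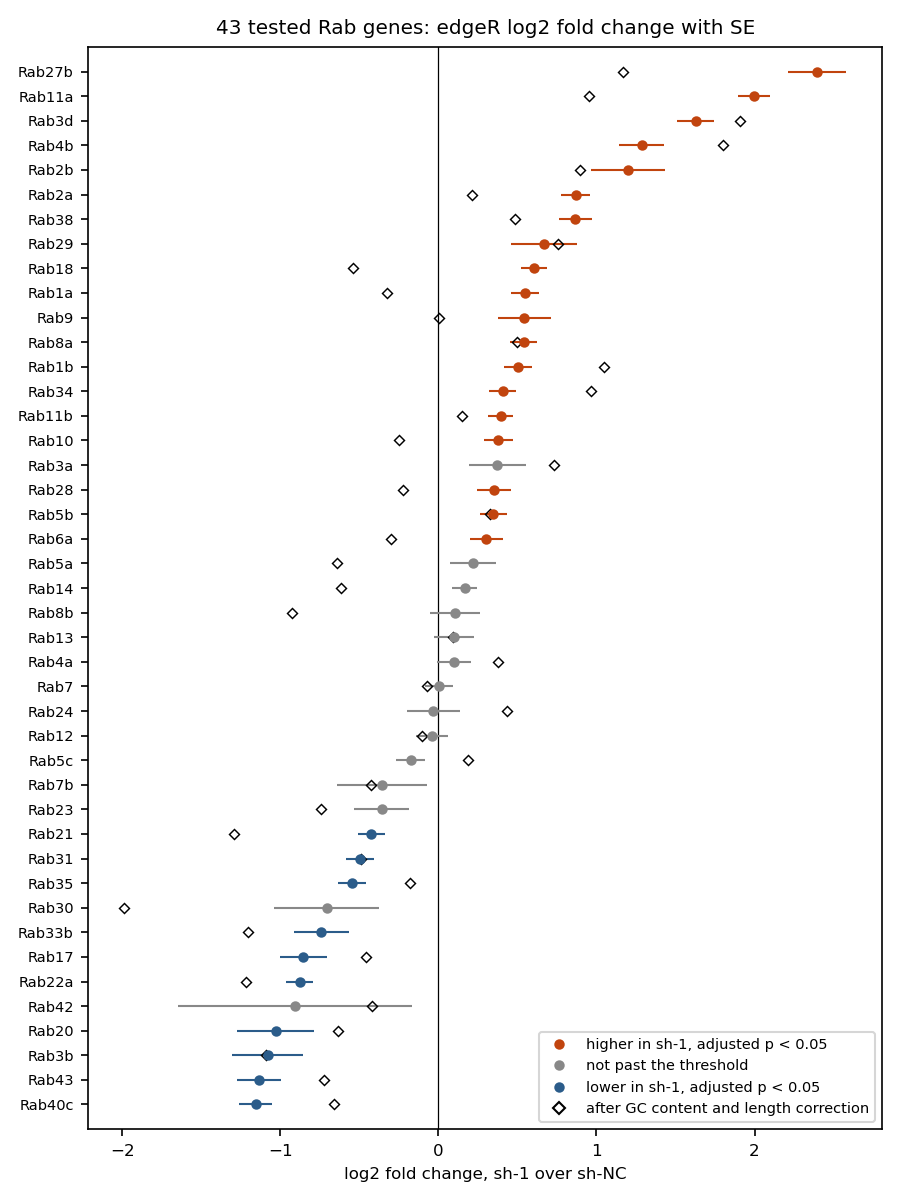
Log2 fold change of sh-1 over sh-NC for the 43 tested Rab genes, as measured (filled points with SE, coloured by call at an edgeR adjusted p under 0.05) and after the GC content and length correction (open diamonds). Rab27b, Rab11a, Rab3d, Rab4b and Rab2b lie furthest to the right at 1.20 to 2.40 and stay above 0 as diamonds, while those of Rab18, Rab1a, Rab10 and Rab6a cross to the left.

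The summed Rab counts made up 0.369, 0.355 and 0.361% of all counts in the sh-1 libraries and 0.310, 0.286 and 0.283% in the sh-NC libraries. The groups did not overlap. On the corrected scale the summed CPM of the tested members was 3552, 3173 and 3218 in sh-1 and 3179, 3240 and 3241 in sh-NC, and there the groups overlapped. Per length, the family was led by the same few genes in both groups. Rab7 ranked first in mean FPKM (fragments scaled for transcript length and depth) in both, with 210 ± 15.9 in sh-1 and 200.3 ± 16.4 in sh-NC, and its level differed by less than the spread between libraries. Rab1b, Rab5c and Rab1a filled ranks 2 to 4 in both groups. Rab11a was at rank 5 in sh-1 and rank 18 in sh-NC, and Rab40c at rank 26 in sh-1 and rank 11 in sh-NC.

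The largest rise belonged to Rab27b, which drives docking and secretion of lysosome-related organelles and exosomes. Rab27b (chromosome 18, 69979131 to 70141605, GRCm38) measured 15.6, 17.9 and 20.0 CPM in sh-1 and 3.63, 2.75 and 3.76 CPM in sh-NC. The sh-1 libraries were all far above the sh-NC libraries, a ratio of 5.26 (log2 fold change 2.40, SE 0.18, edgeR adjusted p = 3.12e-07; corrected 1.17). Its transcript has the lowest GC content of the tested members, 37.9%. Rab11a, the Rab of the recycling endosome (chromosome 9, 64715299 to 64737758), measured 182, 184 and 210.0 CPM in sh-1 and 52.7, 49.1 and 42.2 CPM in sh-NC. No library of one group came near the other, and the ratio was 4.00 (log2 fold change 2.00, SE 0.10, edgeR adjusted p = 1.87e-08; corrected 0.95 at a transcript GC content of 39.5%).

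Rab3d and Rab4b rose as well, and their values were larger after the correction. Rab3d, which is linked to secretory granules in exocrine cells (chromosome 9, 21907491 to 21918192), measured 39.5, 37.5 and 34.2 CPM in sh-1 and 11.5, 11.3 and 13.2 CPM in sh-NC (log2 fold change 1.63, SE 0.12, edgeR adjusted p = 1.93e-07; corrected 1.91). Rab4b, a Rab of rapid recycling from early endosomes (chromosome 7, 27168424 to 27178896), measured 33.7, 28.4 and 26.6 CPM in sh-1 and 11.2, 14.2 and 11.1 CPM in sh-NC (1.29, SE 0.14, edgeR adjusted p = 6.15e-06; corrected 1.80). In both genes the groups stayed well apart. Rab2b, a Golgi Rab, was lower in abundance, at 6.19, 8.40 and 7.90 CPM in sh-1 and 2.95, 2.60 and 4.198 CPM in sh-NC (1.20, SE 0.23, edgeR adjusted p = 0.000627; corrected 0.90). Its exons overlap those of Tox4 on the opposite strand, which averaged 72.8 CPM, and without stated strand use in counting the reads of the pair cannot be told apart.

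The 4 falls of at least 2-fold were Rab40c, Rab43, Rab3b and Rab20. Rab40c, which carries a SOCS box and joins a cullin ubiquitin ligase (chromosome 17, 25882114 to 25919727), measured 35.2, 29.0 and 31.1 CPM in sh-1 and 64.5, 73.4 and 74.2 CPM in sh-NC (log2 fold change -1.15, SE 0.10, edgeR adjusted p = 1.18e-06; corrected -0.66). Rab43, a Golgi Rab (chromosome 6, 87788853 to 87812164), measured 19.5, 16.9 and 14.5 CPM in sh-1 and 32.1, 37.1 and 42.7 CPM in sh-NC (-1.14, SE 0.14, edgeR adjusted p = 1.63e-05; corrected -0.73). The groups did not overlap in either gene. Rab20, linked to phagosomes and to the hypoxia response (chromosome 8, 11453518 to 11478710), measured 5.13, 3.12 and 2.84 CPM in sh-1 and 6.60, 8.24 and 7.79 CPM in sh-NC (-1.03, SE 0.24, edgeR adjusted p = 0.0026; corrected -0.64). Its sh-1 replicate 1 was the closest to the sh-NC libraries, and the call held without any single library.

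**Figure D2:**
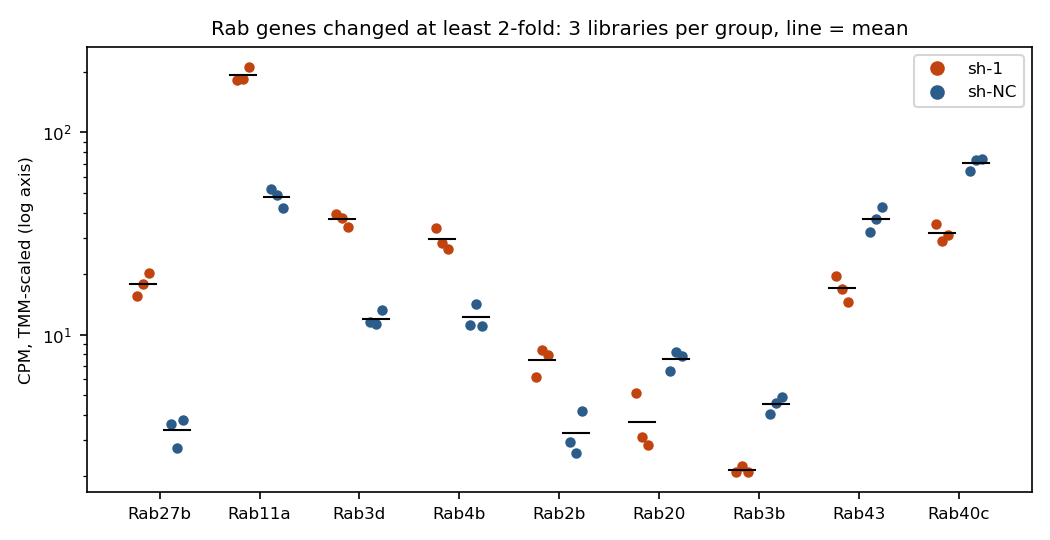
CPM (TMM-scaled, log axis) of the 9 Rab genes that changed at least 2-fold at an edgeR adjusted p under 0.05, with 1 point per library, the mean as a line, and sh-1 left of sh-NC within each gene. Rab27b, Rab11a, Rab3d, Rab4b and Rab2b are higher in all 3 sh-1 libraries than in any sh-NC library, and Rab20, Rab3b, Rab43 and Rab40c are lower.

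Among the Rabs of the endoplasmic reticulum, Golgi and early secretory route, 6 of 9 tested members were higher and 2 lower, where 33.3% and 32.2% of all genes were. The correction left 3 higher and 6 lower, where 32.9% and 34.7% of all genes were. Rab30, at only 1.56 CPM in sh-1 and 2.56 CPM in sh-NC, did not pass as measured (-0.71, edgeR adjusted p = 0.079). Its corrected value of -1.99, past the threshold, was the largest corrected change among the tested members, at a transcript GC content of 38.1%. Rab1a and Rab1b, which drive transport from the endoplasmic reticulum to the Golgi, both rose. Rab1b averaged 318 ± 23.1 CPM in sh-1 and 225 ± 19.6 CPM in sh-NC (log2 fold change 0.50, edgeR adjusted p = 0.000332), and its corrected value was 1.05. Rab1a averaged 261 ± 12.0 CPM in sh-1 and 178 ± 20.0 CPM in sh-NC (0.55, edgeR adjusted p = 0.00019), but its corrected value was -0.32 (edgeR adjusted p = 0.0012). Rab2a, which acts between the Golgi and late endocytic compartments, averaged 143 ± 9.16 CPM in sh-1 and 78.1 ± 7.02 CPM in sh-NC (0.87, corrected 0.21). Rab18, a Rab of the endoplasmic reticulum and lipid droplets, was higher as measured at 153 ± 7.46 CPM in sh-1 and 101 ± 5.68 CPM in sh-NC (0.60), and called lower after the correction (-0.54). Rab6a, of retrograde Golgi traffic, was at 0.30 as measured and -0.30 corrected. Its measured call was lost when sh-1 replicate 1 was left out, at 0.26 with an edgeR adjusted p of 0.058. Leaving out sh-NC replicate 2 gave 0.21 with an edgeR adjusted p of 0.105, and leaving out sh-NC replicate 3 gave 0.30 with an edgeR adjusted p of 0.052. Rab33b, a Golgi Rab that binds the autophagy protein Atg16l1, was lower both ways (-0.74, corrected -1.21).

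Of the 10 tested early endosome Rabs 2 were higher and 5 lower, against 33.3% and 32.2% of all genes. All 7 calls held after the correction (4 higher and 6 lower in all, against 32.9% and 34.7% of all genes), and the median log2 fold change was -0.30 (corrected -0.47), against -0.000647 and -0.0167 over all genes. Rab22a, which acts in sorting to recycling and in endosomal fusion (chromosome 2, 173659760 to 173707343), measured 59.7, 53.8 and 52.4 CPM in sh-1 and 100.1, 100.1 and 105 CPM in sh-NC. The groups were well separated (log2 fold change -0.88, SE 0.09, edgeR adjusted p = 2.24e-06; corrected -1.22). Its relative Rab31 fell by 0.49 on the log2 scale (corrected -0.49), and Rab21, known for integrin endocytosis, fell by 0.42 (corrected -1.29). Rab17, which is found in polarised epithelial cells, averaged 9.60 ± 1.41 CPM in sh-1 and 17.3 ± 0.506 CPM in sh-NC (-0.85, edgeR adjusted p = 0.000278; corrected -0.46). The other fall was Rab20, and the 2 rises were Rab4b and Rab5b.

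Recycling and plasma membrane Rabs had 4 higher and 1 lower of 8 tested members, against 33.3% and 32.2% of all genes (corrected 2 and 4, against 32.9% and 34.7%). Besides Rab11a and Rab11b, Rab8a, which carries cargo from the trans-Golgi network to the surface and the cilium, averaged 172 ± 17.5 CPM in sh-1 and 118 ± 1.86 CPM in sh-NC (log2 fold change 0.54, edgeR adjusted p = 0.000139; corrected 0.50). Rab10, of basolateral and insulin-responsive delivery, was at 0.38 as measured and -0.25 corrected, past the threshold in opposite directions. Rab35, which returns cargo from endosomes to the plasma membrane, averaged 82.6 ± 8.51 CPM in sh-1 and 121 ± 2.22 CPM in sh-NC (-0.55, edgeR adjusted p = 0.00016; corrected -0.18). Rab13, a Rab of tight junction assembly, did not pass (0.10), nor did Rab14, which acts between the trans-Golgi network and endosomes (0.17), although Rab14 was at -0.62 corrected, past the threshold.

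Of the 9 tested Rabs of late endosomes, lysosomes and autophagosomes 4 were higher and 0 lower by edgeR, against 33.3% and 32.2% of all genes. The same counts came from edgeR at an unadjusted p under 0.05 and from DESeq2. The correction also gave 4 higher and 0 lower (all genes 32.9% and 34.7%), but 3 of these were the same members, with Rab24 in place of Rab9. As measured, the 5 uncalled members lay between -0.91 (Rab42, at 0.146 CPM in sh-1 and 0.277 CPM in sh-NC) and 0.01 (Rab7). Rab38, which sorts cargo to lysosome-related organelles, averaged 41.7 ± 3.88 CPM in sh-1 and 22.8 ± 0.867 CPM in sh-NC (log2 fold change 0.87, edgeR adjusted p = 1.57e-05; corrected 0.49). Rab29, a partner of the kinase Lrrk2, averaged 8.05 ± 1.02 CPM in sh-1 and 5.06 ± 1.08 CPM in sh-NC (0.67, edgeR adjusted p = 0.0135; corrected 0.75). Rab34, linked to lysosome positioning and ciliogenesis, was at 0.41 (corrected 0.97). Rab9, which returns mannose 6-phosphate receptors to the Golgi, was at 0.54, lost its call without sh-1 replicate 3 (0.38, edgeR adjusted p = 0.068), and was at 0.00 corrected. Rab7, the Rab of autophagosome and lysosome fusion, measured 511, 436 and 432 CPM in sh-1 and 483, 446 and 445 CPM in sh-NC. Its groups overlapped and its log2 fold change was 0.01 (SE 0.09, edgeR adjusted p = 0.965). Rab24, another Rab found on autophagosomes, did not pass either (-0.03), but was at 0.43 corrected (edgeR adjusted p = 0.0104). It overlaps the far more abundant Prelid1 on the opposite strand (559 CPM).

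Of the exocytic Rabs, Rab27b and Rab3d rose and Rab3b fell, and Rab3a did not pass as measured. Of the remaining 3 tested members Rab28, linked to the photoreceptor cilium, was at 0.35 (edgeR adjusted p = 0.0134). That call did not hold when sh-NC replicate 2 was left out, with a value of 0.32 (edgeR adjusted p = 0.056), or after the correction (-0.22, edgeR adjusted p = 0.063). Rab23, a ciliary Rab of Hedgehog signalling, did not pass as measured (-0.36) and was at -0.74 corrected, past the threshold. Rab40c, described above, completes this group.

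**Figure D3:**
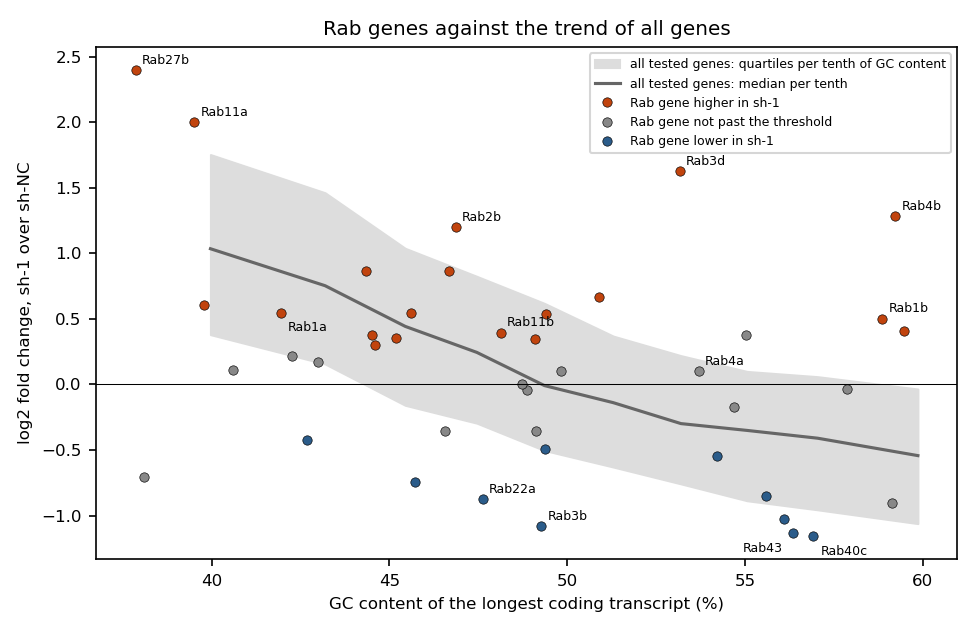
Log2 fold change of sh-1 over sh-NC against the GC content of the longest coding transcript for the 43 tested Rab genes, over the median (line) and quartiles (band) of all tested genes in 10 equal bins of GC content. Rab11a and Rab27b sit at the GC-poor end, where the median of all genes is 1.03 and the upper quartile 1.75, and like Rab3d, Rab4b and Rab1b they lie above the upper quartile of genes of their GC content, whereas Rab3b and Rab22a lie below the lower one.

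Paralogs of 1 Rab number were set against each other within each library, which removes the scaling between libraries. There were 12 such pairs over 8 Rab numbers, and the log2 CPM ratio did not overlap between the groups in 7 of them. Among the 891 pairs of tested Rab genes of different number it did not overlap in 73.5%, and among all 903 pairs in 73.3%, so this count does not set paralogs apart from other Rab pairs. The median absolute shift of the ratio was 0.475 for paralog pairs and 0.78 for other pairs as measured, and 1.07 and 0.788 corrected. With 3 libraries against 3 the smallest two-sided exact permutation p is 0.1, which each of the 7 pairs reached (0.171 adjusted over the 12 pairs), so the design cannot pass 0.05. Coding sequences of paralogs were 64.5 to 79.7% identical over aligned bases, and the longest run shared by any 2 paralog transcripts was 14 to 38 bases.

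Coding tails are shown for the 3 Rab numbers whose balance shifted most as measured, because the C-terminal stretch is where paralogs of a number diverge and carries the cysteines that receive the lipid. Each run is the last 48 coding bases with the stop codon, from the GENCODE M21 transcripts, with the cysteine codons (2 per gene) in capitals.
Rab11a: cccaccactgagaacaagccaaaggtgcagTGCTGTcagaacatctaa
Rab11b: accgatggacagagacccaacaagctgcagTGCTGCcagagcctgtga
Rab3d: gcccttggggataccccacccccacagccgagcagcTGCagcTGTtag
Rab3b: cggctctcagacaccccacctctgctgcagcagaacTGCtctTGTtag
Rab4b: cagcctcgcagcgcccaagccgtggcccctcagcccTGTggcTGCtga
Rab4a: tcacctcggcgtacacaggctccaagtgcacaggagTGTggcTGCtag
In Rab11a and Rab11b the cysteine codons are adjacent and followed by further codons, whereas in the Rab3 and Rab4 genes a single codon separates them and they end the reading frame.

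The Rab3 genes, which serve regulated exocytosis, shifted most. Rab3b averaged 2.13 ± 0.0853 CPM in sh-1 and 4.52 ± 0.449 CPM in sh-NC (log2 fold change -1.08, SE 0.23, edgeR adjusted p = 0.0011; corrected -1.09). With Rab3d called higher, Rab3d and Rab3b were the only paralog pair of the 12 with calls in opposite directions as measured. The log2 ratio of Rab3d to Rab3b was 4.09 ± 0.111 in sh-1 and 1.40 ± 0.106 in sh-NC, a shift of 2.69 (corrected 2.97, SD, n = 3 each). Rab3a moved away from Rab3b in the same direction by 1.44 (corrected 1.80). On its own Rab3a did not pass as measured (0.37, edgeR adjusted p = 0.085). Its corrected value of 0.73 was past the threshold (edgeR adjusted p = 0.0015), opposite to the corrected call of Rab3b. The exons of Rab3a overlap Mpv17l2 on the opposite strand. Per length, Rab3d held 57.1, 61.0 and 57.4% of the summed Rab3 FPKM in sh-1 and 31.8, 30.9 and 34.3% in sh-NC. Rab3b held 10.99, 6.07 and 5.35% in sh-1 and 22.2, 31.0 and 17.9% in sh-NC. Its deposited FPKM overlapped between the groups (1.90 in sh-1 replicate 1 against 1.67 in sh-NC replicate 3), unlike its CPM.

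In the Rab11 pair both genes rose as measured, Rab11a by far more. Rab11b, which shares recycling endosome functions with Rab11a, averaged 186 ± 12.999 CPM in sh-1 and 141 ± 4.35 CPM in sh-NC (log2 fold change 0.39, edgeR adjusted p = 0.000868), but did not pass once corrected (0.15, edgeR adjusted p = 0.199). The log2 CPM ratio of Rab11a to Rab11b was 0.05 ± 0.197 in sh-1 and -1.56 ± 0.206 in sh-NC, a shift of 1.61 that was 0.81 corrected. On the FPKM scale Rab11a was 2.14, 2.36 and 2.47 times Rab11b in sh-1 and 0.872, 0.700 and 0.701 times in sh-NC. On this uncorrected scale Rab11a was the more abundant of the pair in every sh-1 library and the less abundant in every sh-NC library. By CPM, without scaling for length, the log2 ratio was -0.14, 0.03 and 0.25 in the sh-1 libraries. Whether the order changes on a corrected FPKM scale was not tested. The summed FPKM of the pair was 116 ± 8.86 in sh-1 and 46.7 ± 4.30 in sh-NC.

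The Rab4 genes changed order in the same way. Rab4a, which like Rab4b serves rapid recycling, did not pass as measured at 24.6 ± 1.59 CPM in sh-1 and 23.0 ± 1.18 CPM in sh-NC (log2 fold change 0.10, edgeR adjusted p = 0.447; corrected 0.38, edgeR adjusted p = 0.0032). Rab4b held 60.2, 59.3 and 55.2% of the summed Rab4 FPKM in sh-1 and 36.3, 40.6 and 36.8% in sh-NC. Rab4b was therefore above Rab4a in each sh-1 library and below it in each sh-NC library. The shift of their log2 CPM ratio was 1.19, and 1.42 corrected.

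The Rab5 genes, which govern early endosome fusion, kept their order and their sum. Rab5c led at 289 ± 23.4 CPM in sh-1 and 327 ± 26.2 CPM in sh-NC (log2 fold change -0.18, edgeR adjusted p = 0.104; corrected 0.19, past the threshold). Rab5b averaged 97.1 ± 5.71 CPM in sh-1 and 76.3 ± 4.65 CPM in sh-NC (0.35, edgeR adjusted p = 0.0034; corrected 0.33). Rab5a was at 45.6 ± 6.52 CPM in sh-1 and 39.2 ± 7.97 CPM in sh-NC (0.22, edgeR adjusted p = 0.213; corrected -0.64, past the threshold). The ratio of Rab5b to Rab5c shifted by 0.52 without overlap (corrected 0.14). The summed FPKM was 206, 188 and 197 in sh-1 and 199, 189.6 and 206 in sh-NC, and the groups overlapped (two-sided exact permutation p = 0.8).

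In the Rab1 and Rab8 pairs the shift as measured differed from that after the joint GC content and length correction. Rab1a held 33.0, 34.7 and 37.0% of the summed Rab1 FPKM in sh-1 and 39.2, 31.9 and 31.5% in sh-NC, and the groups overlapped. Its transcript has 42.0% GC over 2827 bases and that of Rab1b 58.9% over 1913 bases. The ratio of Rab1a to Rab1b, which shifted by 0.05 as measured, shifted by -1.38 without overlap once corrected. Rab8a shifted against Rab8b by 0.43 as measured and 1.42 corrected. Rab8b, the rarer gene at 9.22 ± 0.437 CPM in sh-1 and 8.56 ± 0.710 CPM in sh-NC, was at 0.11 as measured and -0.92 corrected, past the threshold. The Rab2 and Rab7 pairs overlapped between the groups both ways.

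**Figure D4:**
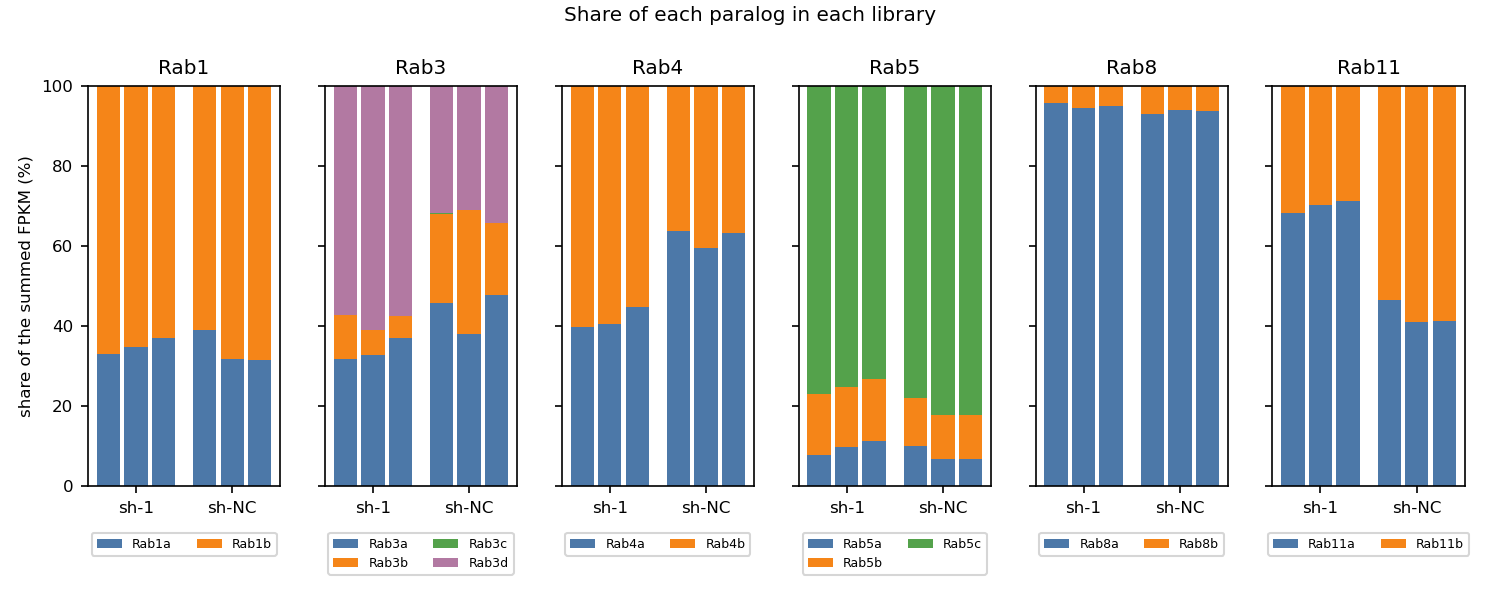
Share of each paralog in the summed deposited FPKM of its Rab number, with 1 bar per library and the sh-1 libraries left of the sh-NC libraries. Rab11a and Rab4b hold the larger share in the 3 sh-1 bars and the smaller share in the 3 sh-NC bars, Rab3d widens in sh-1, and the Rab1 bars overlap between the groups.

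Added over all listed paralogs, the summed FPKM did not overlap between the groups in 11 of 13 Rab numbers with a measurable level, 9 higher and 2 lower in sh-1 (each at the smallest two-sided exact permutation p of 0.1, 0.118 adjusted over the 13). On the CPM scale the groups did not overlap for 35.2% of all single genes in the higher and 35.1% in the lower direction. The overlapping ones were Rab5 and Rab7. The lower ones were Rab33 and Rab40, which rest on Rab33b and Rab40c alone, since Rab33a had at most 2 counts and Rab40b none. Of the higher ones, the Rab9 sum is that of the gene Rab9 alone, since Rab9b had no count. Rab6a held on average 99.9% of the Rab6 sum in sh-1 and 99.96% in sh-NC. The single-gene calls of Rab9 and Rab6a did not hold with every library left out, as given above. The largest shifts of the sum on the log2 scale were 2.21 for Rab27, which rests on Rab27b, 1.32 for Rab11 and -1.08 for Rab40.

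Of the 16 members that were not tested, Rab9b, Rab32 and Rab40b had no count in any library, and the others reached at most 31 counts. A count of 0 allows up to 3 counts at these depths. Rab44, a large Rab known from mast cells, had 0, 0 and 0 counts in sh-1 and 10, 31 and 14 in sh-NC. Rab27a, the paralog of Rab27b, had 0, 3 and 0 counts in sh-1 and 16, 7 and 7 in sh-NC. Rab25, an epithelial relative of Rab11, had counts in a single library (19 in sh-NC replicate 3). These were picked after their counts were seen and were not tested in the main fit.

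RefSeq promoters (GRCm38.p6, from 250 bases before to 50 after the start) were matched by symbol for 48 of the 59 members and 36 of the tested ones. They are shown for Rab11a and its paralog Rab11b, and for Rab40c, the largest fall. Capitals mark matches on either strand to CCAAT, to GGGCGG (the GC box) and to CACGTG (the E-box core of the lysosomal CLEAR element), and no CACGTG lies in these 3 windows.
Rab11a, chr9:64737707-64738006, minus strand: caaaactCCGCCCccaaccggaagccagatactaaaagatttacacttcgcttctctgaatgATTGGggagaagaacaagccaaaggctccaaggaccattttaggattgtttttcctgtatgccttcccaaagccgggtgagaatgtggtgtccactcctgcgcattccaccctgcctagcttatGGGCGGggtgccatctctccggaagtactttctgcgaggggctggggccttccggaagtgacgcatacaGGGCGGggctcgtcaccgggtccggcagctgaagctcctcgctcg
Rab11b, chr17:33760437-33760736, minus strand: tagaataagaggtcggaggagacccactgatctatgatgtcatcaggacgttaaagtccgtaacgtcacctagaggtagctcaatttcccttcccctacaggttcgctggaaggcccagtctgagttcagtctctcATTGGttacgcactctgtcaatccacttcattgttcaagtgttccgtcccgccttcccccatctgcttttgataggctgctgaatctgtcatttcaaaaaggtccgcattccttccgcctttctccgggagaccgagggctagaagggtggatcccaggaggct
Rab40c, chr17:25919665-25919964, minus strand: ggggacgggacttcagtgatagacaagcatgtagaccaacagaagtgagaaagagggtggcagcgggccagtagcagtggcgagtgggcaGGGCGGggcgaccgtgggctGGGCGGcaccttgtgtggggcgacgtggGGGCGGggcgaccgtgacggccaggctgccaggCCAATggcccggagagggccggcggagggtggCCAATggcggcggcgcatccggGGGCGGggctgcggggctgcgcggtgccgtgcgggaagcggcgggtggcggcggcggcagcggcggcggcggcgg
The Rab11a window holds 3 GC boxes and that of Rab11b holds 0, with 1 CCAAT match each. The Rab40c window holds 4 GC boxes and 2 CCAAT matches at a GC content of 75.3%. Over the 44 windows of 36 tested Rab genes, GGGCGG was present in 33, against 35.7% of all 32851 windows. All windows include those of genes that were not tested, so these shares do not compare Rab genes with other tested genes. CCAAT was present in 21 (47.7%), against 37.4% of all windows, and CACGTG in 5 (11.4%), against 7.15%. CACGTG was in 0 of 16 windows of higher members and in 2 of 13 windows of lower members. GGGCGG was in 10 windows of higher and 11 of lower members, and CCAAT in 10 and 4. These windows cover 15 higher and 10 lower genes, and the differences were not tested. A match describes the letters only, and no binding was measured.

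The genes that regulate Rabs moved in both directions. Of 49 tested exchange factors 19 were higher and 13 lower, shares near the 33.3% and 32.2% of all genes (corrected 17 and 16, near the 32.9% and 34.7% of all genes), with a median log2 fold change of 0.07. Dennd4c, an exchange factor for Rab10, averaged 37.9 ± 4.35 CPM in sh-1 and 6.17 ± 1.08 CPM in sh-NC (2.62, SE 0.15, edgeR adjusted p = 4.28e-08; corrected 1.82). Sbf2, a DENN domain protein and myotubularin relative, was at 2.02 (corrected 1.66). Hps4, part of the exchange factor of Rab32 and Rab38, averaged 8.84 ± 0.633 CPM in sh-1 and 27.0 ± 1.08 CPM in sh-NC (-1.61, corrected -1.17). Its partner Hps1 went the other way, at 90.8 CPM in sh-1 and 48.5 CPM in sh-NC (0.91, corrected 1.35). Rin1, which activates Rab5, was at -1.01 (corrected -0.54). Of 37 tested GTPase-activating genes 12 were higher and 10 lower (corrected also 12 and 10), again near the shares of all genes, with a median of -0.12. Tbc1d8b, Tbc1d19 and Tbc1d5, a retromer-bound regulator of Rab7, were at 3.26, 2.00 and 1.48 (corrected 2.23, 1.17 and 1.45). Tbc1d10b, which acts on Rab35, averaged 42.8 ± 2.72 CPM in sh-1 and 108 ± 2.76 CPM in sh-NC (-1.34, SE 0.09, edgeR adjusted p = 8.29e-08; corrected -0.81).

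Genes of Rab prenylation and membrane cycling had 4 higher and 0 lower of 10 tested by edgeR, against 33.3% and 32.2% of all genes. The counts were the same at an unadjusted p under 0.05 and by DESeq2. The correction gave 3 higher and 3 lower, against 32.9% and 34.7% of all genes. The median log2 fold change was -0.00018. Gdi2, a GDP dissociation inhibitor that carries Rabs through the cytosol, averaged 533 ± 29.4 CPM in sh-1 and 227 ± 20.98 CPM in sh-NC (log2 fold change 1.23, SE 0.09, edgeR adjusted p = 2.29e-07), but did not pass once corrected (0.19). Chm, which encodes an escort protein that presents Rabs for lipid attachment, averaged 9.25 ± 2.18 CPM in sh-1 and 2.14 ± 0.153 CPM in sh-NC (2.11, corrected 0.90), and its relative Chml was at 0.84 and did not pass once corrected (-0.31).

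Of 52 tested effectors 25 were higher and 12 lower, against 33.3% and 32.2% of all genes, and 20 and 9 of these calls held after the correction, which gave 26 and 13 in all (all genes 32.9% and 34.7%). The median log2 fold change was 0.29 (corrected 0.45). Eea1, the early endosome tether that binds Rab5, averaged 44.6 ± 6.72 CPM in sh-1 and 7.50 ± 0.517 CPM in sh-NC (2.57, SE 0.14, edgeR adjusted p = 2.38e-08; corrected 1.51). Exoc6, an exocyst subunit that binds Rab11, averaged 51.8 ± 6.07 CPM in sh-1 and 10.5 ± 0.519 CPM in sh-NC (2.31, corrected 1.55). Rab11fip1, a Rab11 effector of receptor recycling, went the other way from Rab11a, at 21.3 ± 1.30 CPM in sh-1 and 63.8 ± 6.53 CPM in sh-NC (-1.58, SE 0.11, edgeR adjusted p = 1.21e-07; corrected -1.57). Of its relatives, Rab11fip2 (1.80, corrected 0.76) and Rab11fip5 (0.58, corrected 1.04) were higher. Rab11fip3 was lower as measured (-0.55) but did not pass once corrected (-0.08). Mapk8ip3, an adaptor for microtubule motors, was at -1.72 (corrected -1.30). Of 5 tested Rab-like GTPases outside the naming rule, Rabl2 was higher (0.56, edgeR adjusted p = 0.032; corrected 0.62) and 0 were lower. Of all genes 33.3% and 32.2% were. At an unadjusted edgeR p under 0.05, and by DESeq2, 2 Rab-like genes were higher and 0 lower. After the correction edgeR called 3 higher and 1 lower (all genes 32.9% and 34.7%).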

How the data were processed

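Messenger RNA of 6 AML12 libraries was enriched with oligo(dT) beads and sequenced, per the labels' protocols. The submitters' processing notes name HISAT2, StringTie and build GRCm38, without their roles, and how reads were assigned to genes and strands is not given in the sources used here. Per the file headers, the deposited table pairs raw counts per gene, whole numbers in every library, with FPKM, which the authors scaled for length and depth. Groups follow the cell line label. The members, lists, tests and named-gene rule were chosen with earlier results of these data known. That rule took all tested paralogs, the 8 largest rises and falls among members, and up to 4 genes per list. Further members are named as parts of the family, and Hps1, Rab11fip2, Rab11fip3 and Rab11fip5 were added beside named relatives or partners.

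Counts of 13197 genes kept by filterByExpr were scaled by TMM and tested with edgeR 4.0.16 (glmQLFit and glmQLFTest, robust, two-sided) in R 4.3.3, adjusted by Benjamini-Hochberg over all genes, threshold 0.05. SE comes from the F statistic. Paralog ratios used log2 CPM with a prior count of 2, and exact permutation tests scipy 1.17.1. GC content and length came from the longest coding transcript in GENCODE M21 (11956 genes, 90.6%, all 43 Rab genes), and natural splines with 5 and 4 degrees of freedom, fitted per library to log2 CPM minus the mean of each gene, entered edgeR as an offset. Coding sequences were aligned with Biopython 1.88. Replicates differed by more than sampling noise (chi-square per degree of freedom 14.4 to 52.5). The script was tested on simulated data. Alternatives were DESeq2 1.42.0, limma 3.58.1 on FPKM (pseudocounts 0.1 and 1), no filter, a replicate block, the correction, and each library left out. The authors' own comparison was not used, because its samples are not named. The 10 rows without an identifier were left out. One gene that the naming rule selects is not reported here.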

Additional observations from a re-analysis of the deposited data

How the results depend on the processing

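The GC content and length correction was the only alternative that moved a main count by over 1.5 times, with 19 Rab genes lower against 10. It turned round the log2 fold change of Rab1a (-0.32), Rab5a (-0.64), Rab5c (0.19), Rab6a (-0.30), Rab7 (-0.070), Rab8b (-0.92), Rab10 (-0.25), Rab14 (-0.62), Rab18 (-0.54), Rab24 (0.43) and Rab28 (-0.22). Elsewhere sign changes were limited to members near 0. Rab7 was at -0.00072 with DESeq2 size factors and with the DESeq2 test, and with limma on FPKM Rab12 was at 0.025 (pseudocount 0.1) and 0.024 (pseudocount 1), and Rab24 at 0.039 and 0.036. With each library left out in turn, Rab7 ranged from -0.077 to 0.068, Rab12 from -0.12 to 0.070 and Rab24 from -0.14 to 0.090. Higher members then ranged from 17 to 21, lower members from 10 to 11, paralog pairs without overlap from 7 to 9 and Rab numbers without overlap from 11 to 12. Without the filter on low counts, which also fitted low-count members left out of the main fit, 19 members were higher and 11 lower. Titles of both groups end in the numbers 2 and 3, and deviations of same-numbered libraries correlated at 0.03 and -0.05. So few pairs cannot show whether these libraries share more than the number. With the title number as a replicate block 17 members were higher and 10 lower, Rab6a (0.27) and Rab28 (0.31) lost their call, and Rab7 was at -0.10. That contrast rests on the libraries numbered 2 and 3 alone, because the other title numbers each occur in a single group. The correction gave 16 higher members (all genes 32.9%) and 10 paralog pairs without overlap. The share among Rab pairs of different number (73.5%) was taken as measured with all libraries. The pair counts of this section therefore have no matching background and do not set paralogs apart. Precision is limited by 3 libraries per group, and Rab42, at under 1 CPM, had the largest SE (0.74).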
